A study of Mus musculus with 32 samples.

Results

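The genes of triglyceride synthesis and lipolysis were followed through liver and 3 fat depots of mice that lack GPR146, a G protein-coupled receptor with no settled ligand. The group was set by function and not by a rule on measured values, although earlier results of these data were known when it was chosen. It holds 5 genes of the synthesis pathway (*Gpam*, *Agpat2*, *Lpin1*, *Dgat1* and *Dgat2*) and 5 genes of lipolysis (*Pnpla2*, *Abhd5*, *G0s2*, *Lipe* and *Mgll*), which is 10 of the 24646 genes measured, and all 10 had a value on every array. Expression was measured on Affymetrix Mouse Gene 2.1 ST arrays, which carry probes to several exons per gene. Liver, white fat of the epididymal pad (eWAT), white fat of the inguinal pad (iWAT) and brown fat (BAT) were taken from 4 male wild-type (WT, *Gpr146*+/+) and 4 male whole-body knockout (KO, *Gpr146*-/-) littermates, 1 array per mouse and tissue, 32 arrays in all. Both genotypes came from matings of heterozygous mice, were 20 weeks old, had been fed a high fat diet (HFD) for 3 months and were fasted overnight before collection. Because the deletion was made in the germ line, every cell type of a KO mouse carried it from conception. Chow-fed, fed-state and female mice were not analysed here.

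Adipocytes and hepatocytes store fatty acids as triglyceride in lipid droplets. In the glycerol phosphate pathway, fatty acyl groups are added to glycerol-3-phosphate first by a glycerol-3-phosphate acyltransferase such as *Gpam* (GPAT1, on the outer membrane of mitochondria) and then by an acylglycerophosphate acyltransferase such as *Agpat2*, a lipin (*Lpin1*) removes the phosphate, and *Dgat1* or *Dgat2* adds the last acyl group. In lipolysis, *Pnpla2* (ATGL, adipose triglyceride lipase) makes the first cut with the help of its co-activator *Abhd5* (CGI-58) and is held back by its inhibitor *G0s2*, after which *Lipe* (hormone-sensitive lipase) and *Mgll* (monoacylglycerol lipase) release the remaining fatty acids. Loss of AGPAT2 in people and mice causes a lack of fat tissue, and fasting drives lipolysis in fat through adrenergic receptors and cAMP.

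The sequences around the start of transcription were read from RefSeq (mouse build GRCm38.p6), which gave 11 windows for 8 of the 10 genes, each from 250 bases before to 50 bases after an annotated start. *Gpam*, *Agpat2* and *Pnpla2* are printed because *Gpam* changed most in eWAT, *Agpat2* changed in BAT, and *Pnpla2* makes the first cut of lipolysis. All run 5′ to 3′ on the gene's strand, and the capitals mark the motifs searched on both strands: AGGTCA (the core site of nuclear receptors), AGGTCANAGGTCA (the direct repeat that PPAR proteins bind, which holds the core site), the E-box CACGTG, the cAMP response element TGACGTCA, its short form TGACG, which lies within it, the C/EBP site TTGCGCAA, the CCAAT box with these letters, the FOXO element GTAAACA, the GC box GGGCGG and the TATA box TATAAA.
Gpam, chr19:55127189-55127488, minus strand: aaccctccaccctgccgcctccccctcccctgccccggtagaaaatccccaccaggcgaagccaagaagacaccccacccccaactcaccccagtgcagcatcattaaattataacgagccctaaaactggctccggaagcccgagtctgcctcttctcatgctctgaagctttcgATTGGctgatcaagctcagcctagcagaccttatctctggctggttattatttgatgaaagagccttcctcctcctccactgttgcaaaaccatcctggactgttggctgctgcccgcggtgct
Gpam, chr19:55099428-55099727, minus strand, a second start: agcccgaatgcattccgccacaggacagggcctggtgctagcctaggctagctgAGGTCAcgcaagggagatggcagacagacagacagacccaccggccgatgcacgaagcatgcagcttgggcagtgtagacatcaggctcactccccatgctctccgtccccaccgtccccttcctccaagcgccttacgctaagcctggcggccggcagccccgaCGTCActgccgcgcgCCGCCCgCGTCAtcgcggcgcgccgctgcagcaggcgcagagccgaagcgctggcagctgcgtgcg
Agpat2, chr2:26604368-26604667, minus strand: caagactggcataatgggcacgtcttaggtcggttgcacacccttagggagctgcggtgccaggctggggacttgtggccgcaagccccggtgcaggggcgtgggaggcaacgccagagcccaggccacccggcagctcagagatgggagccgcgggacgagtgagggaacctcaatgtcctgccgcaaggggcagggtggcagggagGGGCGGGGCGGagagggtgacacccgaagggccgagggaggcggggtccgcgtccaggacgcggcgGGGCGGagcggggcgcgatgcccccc
Pnpla2, chr7:141454938-141455237, plus strand: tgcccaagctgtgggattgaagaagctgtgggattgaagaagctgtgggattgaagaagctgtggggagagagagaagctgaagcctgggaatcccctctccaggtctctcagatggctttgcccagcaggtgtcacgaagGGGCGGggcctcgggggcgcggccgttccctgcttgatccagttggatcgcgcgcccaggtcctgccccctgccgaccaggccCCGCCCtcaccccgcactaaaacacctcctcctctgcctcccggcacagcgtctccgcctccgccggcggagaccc

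The *Agpat2* window held GC boxes and no other of these motifs, and the *Pnpla2* window was marked by GC boxes as well, whereas 35.7% of the 32851 windows of all genes held at least 1 GC box. The first *Gpam* window held a CCAAT box on the opposite strand, as did 37.4% of all windows on either strand. The second *Gpam* window held the nuclear receptor core site, present in 16.3% of windows, TGACG on the opposite strand, present in 20.8%, and a GC box. The direct repeat was found in none of the members' windows and in 0.0396% of all windows. Among members not printed, *Lipe* and *Mgll* held the E-box CACGTG (7.15% of windows) and the FOXO element (3.65%), and *Lpin1* and *Abhd5* held the nuclear receptor core site. The GC content of the printed windows was 55.67% and 68% for *Gpam*, 72% for *Agpat2* and 65.33% for *Pnpla2*, against a median of 52.7% over all windows. These matches describe the letters of the windows only.

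*Gpr146* itself was lower in KO than in WT on all arrays of every tissue, with mean log2 values of 6.22 ± 0.06 in WT and 4.45 ± 0.16 in KO livers (SD, n = 4 each). The log2 fold change in liver was -1.77. In fat the log2 fold change was -1.55 (iWAT), -1.53 (eWAT) and -1.16 (BAT). The exact permutation test (two-sided) gave p = 0.0286 in each tissue, the smallest that 4 mice against 4 allow, and the adjusted p of limma was 0.0727 in BAT and 0.221 in iWAT. The titles of the 4 KO liver samples name both genotypes, and they were used as KO by their source name, genotype and description. Array medians lay between 2.82 and 2.86 in BAT, 3.65 and 3.73 in iWAT, 3.13 and 3.18 in eWAT and 3.00 and 3.06 in liver, and arrays of 1 tissue correlated across genes with r of 0.939 or more. The spread of values over the genes of an array (SD) was smaller in KO than in WT fat, 1.86 to 1.99 against 2.02 to 2.03 in eWAT and 1.73 to 1.89 against 1.88 to 1.94 in iWAT. The tissues carried their defining markers: hepatocyte markers averaged 10.52 to 10.61 in liver and at most 3.43 in fat, brown adipocyte markers averaged 7.94 to 8.64 in BAT and at most 4.32 elsewhere, and the adipocyte markers *Adipoq*, *Plin1*, *Fabp4*, *Cidec* and *Acvr1c* averaged 8.92 or more in every fat array. B cell markers averaged 5.75 to 7.90 in iWAT of WT mice 1 and 2 and KO mice 2 and 4 and at most 3.62 in the other iWAT arrays, and skeletal muscle markers averaged 6.76 to 7.93 in BAT of WT mice 2 and 3 and KO mouse 2 and at most 4.06 in the other BAT arrays. In iWAT the muscle markers averaged 5.23 in WT mouse 4 and at most 3.84 in the other arrays.

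In WT mice, expression of the 10 genes was described as the log2 value minus the median of the same array, because each tissue was normalized in a table of its own. Array medians differed between tissues, so the orders below hold on this scale. On it BAT stood highest for every member but *Mgll*. By percentile within the array, BAT was not highest for *Pnpla2* (99.838 to 99.878 in BAT and 99.878 to 99.911 in iWAT), and BAT and iWAT overlapped for *Abhd5* (95.7 to 96.4 and 91.5 to 97.0) and *G0s2* (87.1 to 93.6 and 78.9 to 88.3). By this measure *G0s2* in liver (82.4 to 88.0) overlapped with BAT as well. Orders among other tissues also changed. The iWAT percentiles of *Lpin1* (96.7 to 98.6) spanned those of eWAT (97.8 to 98.2). *Mgll* in iWAT (95.3 to 97.3) overlapped with eWAT (95.97 to 96.94) and BAT (95.6 to 96.7). *Pnpla2* lay 8.03 to 8.20 above the array median in BAT, 7.11 to 7.35 in eWAT, 6.81 to 7.22 in iWAT and 4.40 to 4.60 in liver. The 2 white depots overlapped for this gene and liver was far below all fat. *Lipe* had the same order of BAT over white fat over liver, with 5.37 to 5.57 in BAT, 3.93 to 4.44 in iWAT, 3.77 to 4.02 in eWAT and 1.27 to 1.51 in liver. *Dgat1*, the acyltransferase that also handles fatty acids re-esterified in the endoplasmic reticulum, lay 5.002 to 5.280 above the median in BAT, 3.61 to 4.03 in eWAT, 2.56 to 3.68 in iWAT and 1.72 to 1.94 in liver. Its partner in the last step, *Dgat2*, was not low in liver, with 8.13 to 8.31 in BAT, 6.22 to 6.52 in liver, 6.05 to 6.64 in eWAT and 4.70 to 6.27 in iWAT, and the last 3 ranges overlapped. *Gpam* was also higher in liver than in white fat, 5.66 to 5.78 in liver and 6.54 to 7.07 in BAT against 3.86 to 4.24 in eWAT and 2.98 to 3.90 in iWAT. *Mgll* was the exception to the lead of BAT, with 4.66 to 4.96 in eWAT and 4.55 to 4.92 in BAT, ranges that overlapped, against 3.86 to 4.52 in iWAT and 3.42 to 3.73 in liver. *G0s2* was lowest in white fat, with 2.0995 to 2.2841 in eWAT and 2.12 to 2.90 in iWAT, against 2.53 to 3.11 in liver, which overlapped with iWAT, and 3.24 to 4.16 in BAT. *Agpat2* stood far apart in BAT, at 7.11 to 7.23, whereas liver (4.60 to 4.82) and eWAT (4.02 to 4.88) overlapped and iWAT had 3.69 to 4.27. *Lpin1* followed the order BAT (6.01 to 6.39), eWAT (5.26 to 5.41), iWAT (4.16 to 5.08) and liver (3.27 to 4.19), the last pair with overlap. *Abhd5* was highest in BAT (4.55 to 4.80) and lowest in liver (2.39 to 2.75), with eWAT (3.63 to 3.93) lying inside the range of iWAT (3.28 to 4.32).

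**Figure D1:**
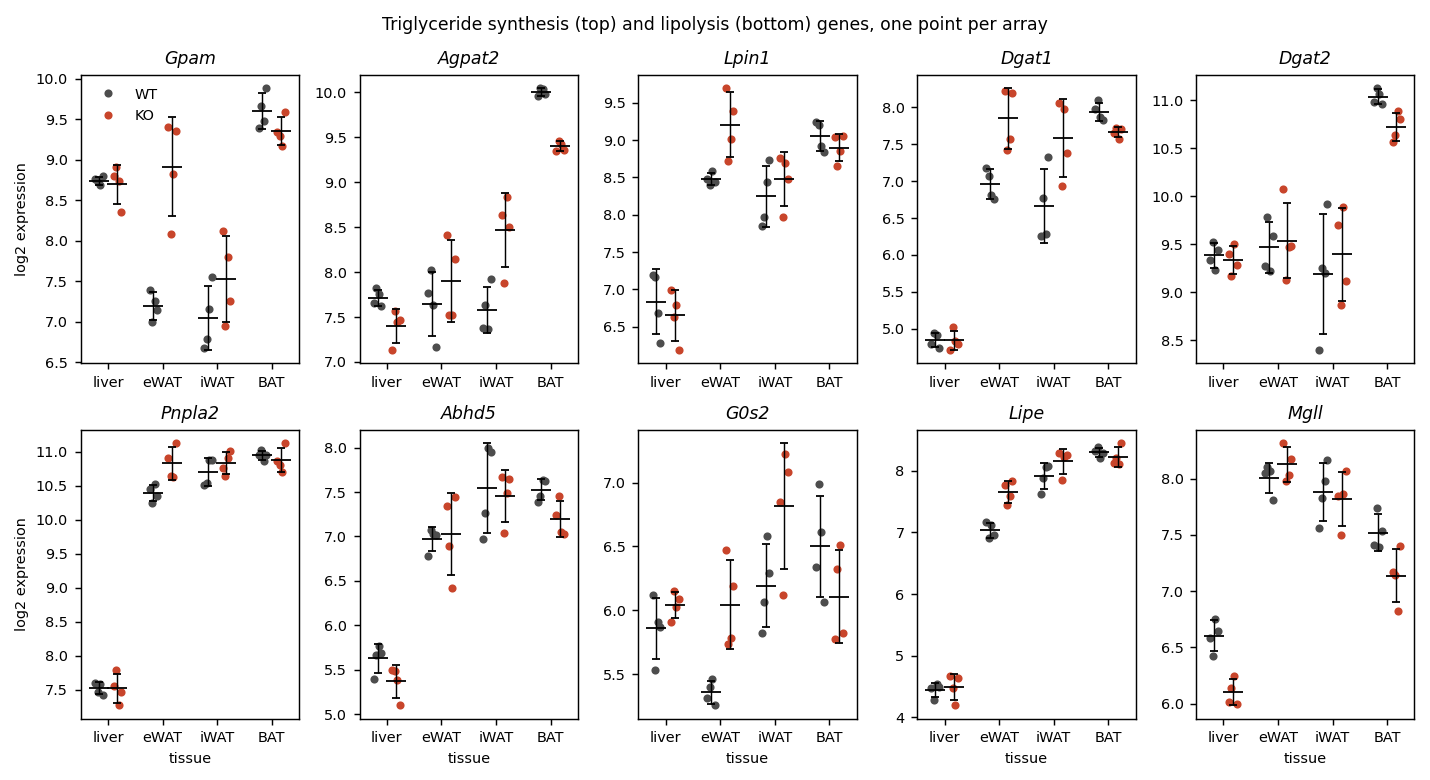
Log2 expression of the 5 synthesis genes (top) and the 5 lipolysis genes (bottom) in liver, eWAT, iWAT and BAT of WT (grey) and KO (red) mice, 1 point per array, with the mean and SD of 4 mice as bars. In eWAT the KO points of *Gpam*, *Lpin1*, *Dgat1*, *Pnpla2*, *G0s2* and *Lipe* lie above all WT points, and in BAT the KO points of *Agpat2* lie below them.

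The first question was which of these genes differed between KO and WT eWAT, the visceral depot next to the epididymis. KO eWAT had more mRNA of 6 of the 10 genes, at an adjusted p under 0.05 from limma over all 24646 genes, and none was lower. Both arms moved: *Gpam*, *Lpin1* and *Dgat1* of synthesis and *Pnpla2*, *G0s2* and *Lipe* of lipolysis rose. In the same comparison 15.2% of all genes passed the threshold, 4.57% of all genes as higher in KO. By count these were 1126 genes higher and 2632 lower, and 1830 and 1910 after quantile normalization, under which the same 6 members passed. The 6 genes were also those whose 4 KO values did not overlap the 4 WT values, in a depot where 8.63% of all genes were higher without overlap. The median log2 fold change of the members was 0.53, against 0.03 over all genes. Since whole tissue was used, more or fewer cells of a type cannot be told apart from more or less mRNA per cell.

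Among the synthesis genes, *Gpam* measured 7.39, 6.997, 7.25 and 7.14 in the 4 WT mice and 9.41, 8.08, 8.83 and 9.35 in the 4 KO mice. The lowest KO value, that of mouse 2, was still 0.69 log2 units above the highest WT value. The mean rose from 7.19 ± 0.17 to 8.92 ± 0.61 (SD, n = 4), a 3.30-fold rise (log2 fold change 1.72, standard error 0.26, adjusted p = 0.0087 from limma). *Dgat1* measured 7.18, 7.07, 6.81 and 6.77 in WT and 8.22, 7.42, 7.57 and 8.20 in KO. Again no KO value reached down into the WT range, and the change was 1.86-fold (log2 0.90, standard error 0.19, adjusted p = 0.0177). *Lpin1*, whose protein also acts in the nucleus as a co-activator, measured 8.48, 8.40, 8.58 and 8.44 in WT and 9.70, 8.72, 9.01 and 9.39 in KO, 1.66-fold higher (log2 0.73, standard error 0.19, adjusted p = 0.028). The WT mice lay within 0.18 log2 units of each other and KO mouse 2 stood nearest to them. *Agpat2* did not pass, with 7.76, 8.02, 7.64 and 7.17 in WT and 8.41, 7.52, 7.52 and 8.15 in KO (log2 fold change 0.25, 95% interval -0.28 to 0.79, adjusted p = 0.517). *Dgat2* did not pass either, with 9.28, 9.78, 9.23 and 9.59 in WT and 10.07, 9.13, 9.47 and 9.48 in KO (log2 0.07, 95% interval -0.37 to 0.52). In both genes the genotypes overlapped.

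Among the lipolysis genes, *Pnpla2* measured 10.44, 10.25, 10.53 and 10.34 in WT and 10.91, 10.64, 10.62 and 11.13 in KO. The groups were separated by 0.10 log2 units, and the mean was 1.35-fold higher in KO (log2 0.44, standard error 0.12, adjusted p = 0.0429 from limma). *Lipe* measured 7.17, 6.91, 7.12 and 6.95 in WT and 7.77, 7.44, 7.60 and 7.84 in KO, 1.54-fold higher (log2 0.63, standard error 0.11, adjusted p = 0.0101). This was the smallest standard error among the members that rose. *G0s2*, the inhibitor of ATGL, rose with them: it measured 5.31, 5.40, 5.46 and 5.25 in WT and 6.47, 5.73, 5.78 and 6.19 in KO, 1.61-fold higher (log2 0.69, standard error 0.16, adjusted p = 0.020). *Abhd5*, the co-activator of ATGL, did not pass, with 6.78, 7.07, 7.03 and 7.01 in WT and 7.35, 6.90, 6.43 and 7.44 in KO (log2 0.05, 95% interval -0.40 to 0.51). *Mgll* measured 8.05, 8.10, 8.07 and 7.81 in WT and 8.32, 7.98, 8.03 and 8.18 in KO (log2 0.12, 95% interval -0.11 to 0.35). For *Abhd5* the KO mice lay on both sides of the WT range, and for *Mgll* KO mice 1 and 4 lay above it and the other KO mice inside it. Leaving out 1 mouse at a time, *Gpam* and *Lipe* passed in all 8 fits, whereas *Dgat1* passed in 6, *G0s2* in 4 and *Lpin1* and *Pnpla2* in 2 each. The count of members past the threshold ranged from 2 to 6, with 2 without WT mouse 4, 4 without KO mouse 1 and 3 without WT mouse 1, 2 or 3 or KO mouse 4.

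**Figure D2:**
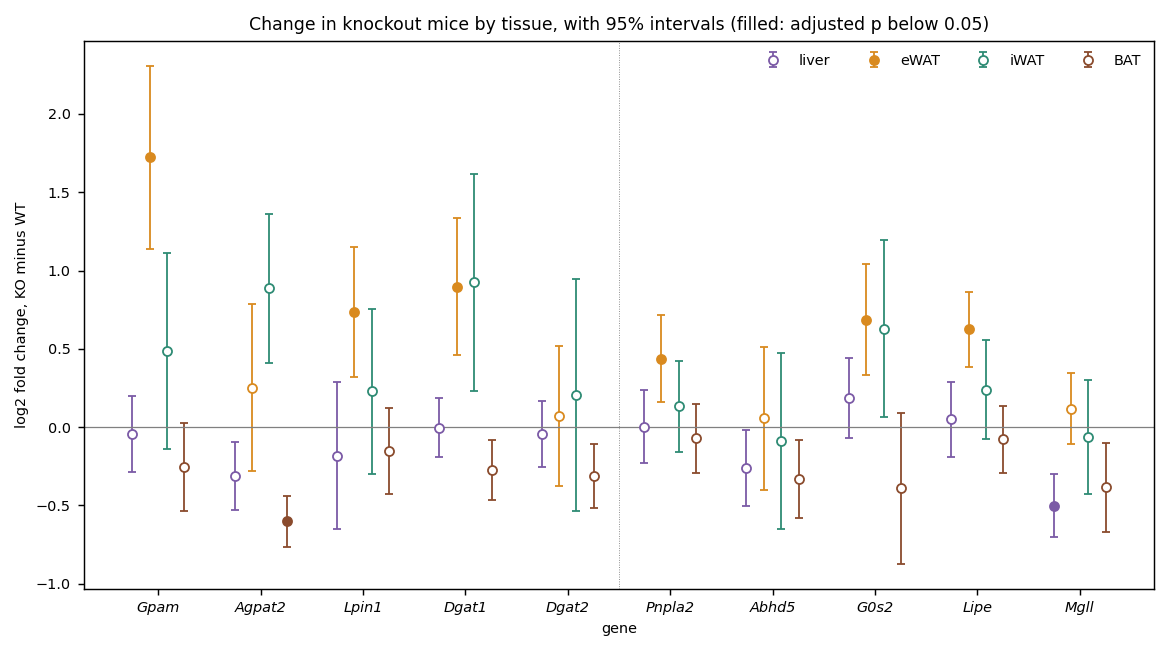
Log2 fold change of each gene, KO minus WT, in liver, eWAT, iWAT and BAT, with its 95% interval from limma, synthesis genes left and lipolysis genes right of the dotted line. Filled points passed an adjusted p of 0.05: 6 genes in eWAT, all higher, *Agpat2* in BAT and *Mgll* in liver, both lower.

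Cell type markers differed between the same eWAT arrays. All 5 adipocyte markers rose in KO, their mean per array going from 8.92 to 9.07 in WT to 9.37 to 9.75 in KO, and among them *Acvr1c* rose by 1.31 and *Fabp4* by 0.24 on the log2 scale. All 8 macrophage markers fell, with a mean per array of 8.61 to 8.86 in WT and of 5.31, 8.21, 6.39 and 5.61 in KO mice 1 to 4, so that KO mouse 2 was close to WT, and 4 of 5 progenitor markers fell too (*Pdgfra*, *Dpp4*, *Col1a1* and *Dcn*). Of 5 endothelial markers 1 rose (*Emcn*), with a mean of 7.59 to 7.66 in WT and 7.62 to 8.04 in KO, and of 5 mesothelial markers *Upk3b* and *Msln* fell (list mean 4.41 to 5.80 in WT and 4.18 to 4.43 in KO), whereas epididymis markers stayed low at 2.05 to 2.62 on all eWAT arrays. KO mouse 2 also had the lowest KO value of *Gpam*, *Lpin1*, *Dgat1*, *G0s2* and *Lipe*. Without this mouse 6 members passed, and *Gpam* in eWAT was higher by 2.00 on the log2 scale. The part of the macrophage and progenitor markers in the members' changes was not tested.

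Expressed relative to the mean of the 5 adipocyte markers of the same array, the picture changed for most members. *Gpam* remained higher in KO, at -1.68, -1.95, -1.69 and -1.79 in WT and -0.34, -1.29, -0.63 and -0.36 in KO (log2 difference 1.12, standard error 0.19, adjusted p = 0.00037 from limma). No KO value overlapped the WT values. *Lpin1* (0.13), *Dgat1* (0.29), *G0s2* (0.08), *Lipe* (0.02) and *Pnpla2* (-0.17) no longer differed past the threshold, and for *Pnpla2* the sign turned. *Mgll* was now lower in KO by 0.49, without overlap (adjusted p = 0.0028), *Abhd5* by 0.55 (adjusted p = 0.0096) and *Dgat2* by 0.53 (adjusted p = 0.012), all with log2 differences below 0. On this scale the median of all genes was shifted by -0.57 and 88.6% of all genes passed as lower and 0.751% as higher, so that the fall of *Mgll*, *Abhd5* and *Dgat2* was no larger than that of the median gene. The values of *Lpin1*, *Dgat1*, *G0s2*, *Lipe* and *Pnpla2* lay above that of the median gene. *Plin1*, *Fabp4* and *Cidec* serve both as adipocyte markers and as genes of lipid droplets and fatty acid binding.

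**Figure D3:**
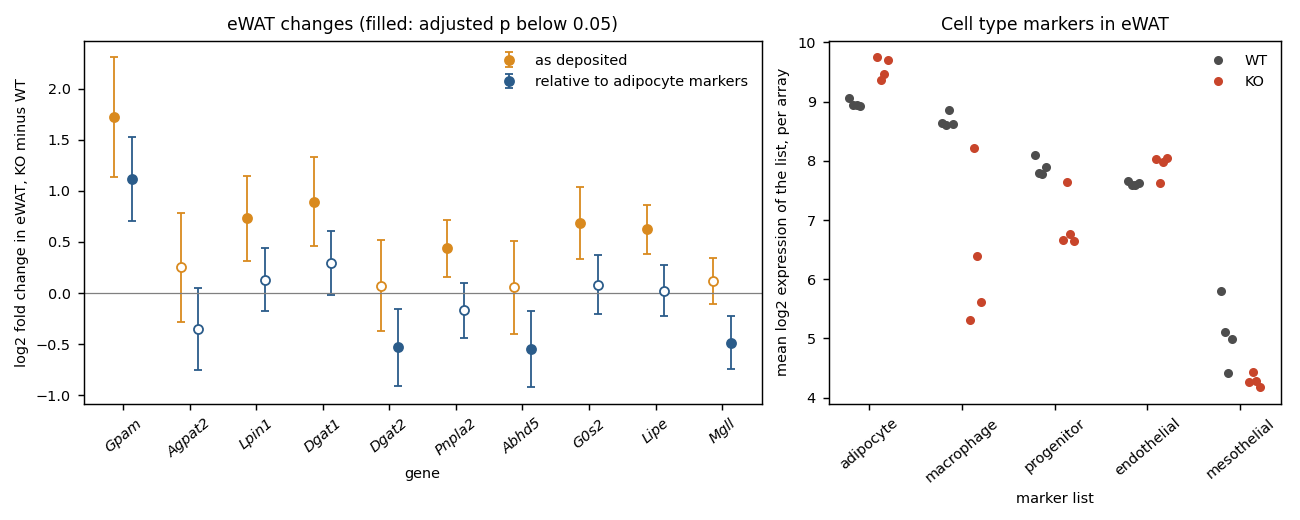
Left, log2 fold change in eWAT (KO minus WT, 95% interval) as deposited (orange) and relative to the mean of 5 adipocyte markers of the array (blue), with filled points past an adjusted p of 0.05. Right, mean log2 value of each marker list per eWAT array. *Gpam* stays above 0 on both scales, and the macrophage mean of 1 KO mouse (8.21) lies near the WT range of 8.61 to 8.86.

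Whether the eWAT changes differed from those of the other tissues was tested on the difference between tissues within each mouse. The reference tissue, eWAT, was chosen because earlier results of these data gave it the most changed genes. Larger changes in eWAT were thus favoured in advance, and these tests are no independent evidence that eWAT stands apart. Against liver, the change in eWAT was higher for 4 of 10 members (8.37% of all genes passed this test, 2.65% as higher in eWAT). The difference was 1.77 for *Gpam* (95% interval 1.07 to 2.46, adjusted p = 0.010), 0.90 for *Dgat1* (adjusted p = 0.040), 0.58 for *Lipe* (adjusted p = 0.020) and 0.62 for *Mgll* (adjusted p = 0.037), all in log2 units. Against BAT, it was higher for 5 of 10 (6.93% of all genes passed, 2.17% as higher): 1.98 for *Gpam* (95% interval 1.39 to 2.56, adjusted p = 0.0080), 1.17 for *Dgat1* (adjusted p = 0.010), 0.88 for *Lpin1* (adjusted p = 0.014), 0.70 for *Lipe* (adjusted p = 0.015) and 0.51 for *Pnpla2* (adjusted p = 0.039). *Gpam*, *Dgat1* and *Lipe* passed both tests. Against iWAT, no member passed by limma and 0% of all genes did, with 3 members and 10.8% of all genes at an unadjusted p under 0.05. The 3 were *Gpam*, with a difference of 1.24 (95% interval 0.60 to 1.87, adjusted p = 0.155), *Lpin1* with 0.50 (0.01 to 0.99) and *Lipe* with 0.39 (0.04 to 0.74). For *Dgat1* the change was 0.03 smaller in eWAT than in iWAT (difference -0.03, 95% interval -0.79 to 0.72), an interval that spans differences in both directions. Leaving out 1 mouse, the count ranged from 1 to 6 against liver and from 2 to 7 against BAT, and *Gpam* passed both tests in all 8 fits. Against liver, *Lipe* passed in 4 of the 8, *Mgll* in 3 and *Dgat1* in 2 (adjusted p up to 0.112). Against BAT, *Dgat1* passed in 8, *Lpin1* in 7, *Lipe* in 6 and *Pnpla2* in 2. With the arrays of the 2 tissues taken as independent samples, 4 members passed against liver and 5 against BAT, where *Pnpla2* no longer passed (adjusted p = 0.077) and *G0s2* did (difference 1.08, adjusted p = 0.038). *Pnpla2* against BAT also missed the threshold after quantile normalization (adjusted p = 0.074).

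**Figure D4:**
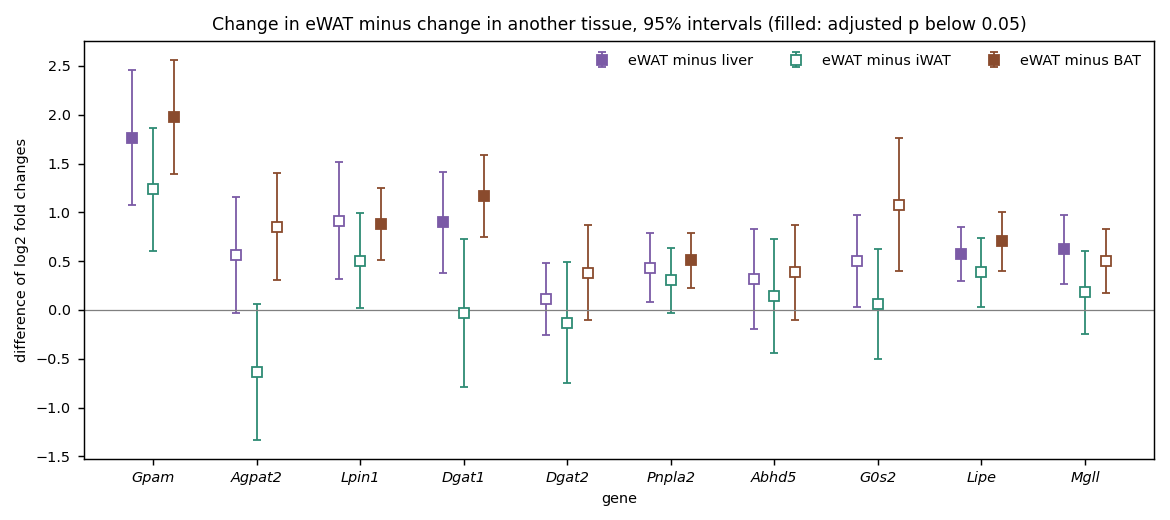
Log2 fold change in eWAT minus that in liver (purple), iWAT (green) or BAT (brown) for each gene, with 95% intervals from limma on per-mouse differences. Filled squares passed an adjusted p of 0.05: *Gpam*, *Dgat1*, *Lipe* and *Mgll* against liver, and *Gpam*, *Lpin1*, *Dgat1*, *Pnpla2* and *Lipe* against BAT.

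In iWAT, the subcutaneous depot, no member passed by limma, nor did any of the 24646 genes (0%). At an unadjusted p under 0.05 there were 3 members against 15.4% of all genes, and the methods' t-test gave 2 without adjustment, against 12.8% of all genes, and 0 with it. The 3 were *Agpat2*, *Dgat1* and *G0s2*. *Agpat2* measured 7.38, 7.64, 7.37 and 7.92 in WT and 8.64, 7.88, 8.83 and 8.50 in KO (log2 fold change 0.89, 95% interval 0.41 to 1.36, adjusted p = 0.221). *Dgat1* measured 6.26, 6.78, 6.28 and 7.33 in WT and 8.06, 6.93, 7.98 and 7.38 in KO (log2 0.93, 95% interval 0.23 to 1.62, adjusted p = 0.251). *G0s2* measured 5.82, 6.07, 6.58 and 6.29 in WT and 6.85, 6.12, 7.22 and 7.09 in KO (log2 0.63, 95% interval 0.06 to 1.19, adjusted p = 0.296). In all 3 genes KO mouse 2 lay within the WT range and the other KO mice were above all WT mice. *Gpam* measured 6.68, 6.79, 7.15 and 7.55 in WT and 8.13, 6.95, 7.80 and 7.25 in KO, with overlap (log2 0.49, adjusted p = 0.409). *Pnpla2* measured 10.51, 10.54, 10.87 and 10.87 in WT and 10.76, 10.65, 10.90 and 11.01 in KO, with overlap as well (log2 0.13, 95% interval -0.16 to 0.42). *Dgat2* had the widest spread in this depot, with 8.40, 9.25, 9.20 and 9.92 in WT and 9.70, 8.87, 9.89 and 9.12 in KO (log2 0.20, 95% interval -0.54 to 0.94). The members not past an unadjusted p of 0.05, other than *Gpam*, differed by -0.09 (*Abhd5*) to 0.24 (*Lipe*). The genotypes overlapped in all 10 members, and the share of all genes without overlap is not given here for iWAT. The median over the members was 0.23 against 0.02 over all genes. Macrophage markers averaged 5.86 to 6.89 in WT and 5.07 to 5.94 in KO iWAT, where KO mouse 2 again had the highest KO value, and their part in the result was not tested. KO mouse 2 was also 1 of the 4 iWAT arrays high in B cell markers. Without WT mouse 4, the array highest in muscle markers, *Agpat2* did not pass (log2 1.00, adjusted p = 0.402). Without KO mouse 2 *Agpat2* passed (log2 1.08, adjusted p = 0.040), and without the 4 arrays high in B cell markers, a comparison of 2 mice with 2 chosen after seeing the data, it passed as well (log2 1.09, adjusted p = 0.043), with WT mouse 4 among the 2 WT mice kept. Of all genes, 227 passed without KO mouse 2 and 916 without the 4 arrays. Apart from these 2 fits, the B cell markers' part in the result was not tested.

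In BAT, which burns the fatty acids that lipolysis frees, all 10 members had a lower mean in KO, and 1 of them, *Agpat2*, passed the threshold. Over all genes 0.0284% passed, 0.0243% as lower. *Agpat2* measured 9.96, 10.05, 10.03 and 9.98 in WT and 9.35, 9.46, 9.43 and 9.36 in KO. The gap between the groups, 0.49 log2 units, was several times the range within either of them. The mean fell from 10.01 ± 0.05 to 9.40 ± 0.05 (SD, n = 4), 1.52-fold lower in KO (log2 fold change -0.60, standard error 0.07, adjusted p = 0.0483 from limma). Relative to the adipocyte markers it was still lower, by 0.36 (log2 difference -0.36, adjusted p = 0.022), on a scale where 0.353% of all genes passed as lower. The median of all genes was shifted by 0.25 on that scale, and 6578 of 24646 genes passed as higher. *Dgat2* measured 10.98, 11.13, 11.07 and 10.97 in WT and 10.57, 10.64, 10.88 and 10.80 in KO (log2 -0.31, standard error 0.09, adjusted p = 0.199). *Dgat1* measured 7.98, 8.10, 7.87 and 7.83 in WT and 7.66, 7.72, 7.58 and 7.71 in KO (log2 -0.27, standard error 0.09, adjusted p = 0.223). These 2 acyltransferases did not pass, although with *Agpat2* they made 3 members whose groups did not overlap, all lower in KO (3.92% of all genes).

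The lipolysis genes of BAT did not pass. *Mgll* measured 7.41, 7.74, 7.39 and 7.54 in WT and 7.17, 7.15, 6.83 and 7.40 in KO (log2 -0.38, adjusted p = 0.245). *Abhd5* measured 7.39, 7.46, 7.64 and 7.62 in WT and 7.24, 7.46, 7.05 and 7.03 in KO (log2 -0.33, adjusted p = 0.251). In each of these genes 1 KO mouse lay within the WT range. *Pnpla2* measured 10.95, 11.02, 10.86 and 10.94 in WT and 10.86, 10.80, 10.70 and 11.13 in KO, so that KO mouse 4 was the highest of all 8. *Lipe* had the same form, with 8.33, 8.39, 8.21 and 8.29 in WT and 8.13, 8.21, 8.10 and 8.46 in KO. *Pnpla2* (-0.07), *Lipe* (-0.08), *Lpin1* (-0.15), *Gpam* (-0.25) and *G0s2* (-0.39) had log2 fold changes whose 95% intervals included 0. The median over the members was -0.29, against 0.00 over all genes. The adipocyte markers were lower in KO BAT as well, with a mean per array of 9.25 to 9.33 in WT and 8.99 to 9.11 in KO, although none of the 5 passed by limma and 3 had an unadjusted p under 0.05 (12.7% of all genes). The brown adipocyte markers averaged 8.44 to 8.64 in WT and 7.94 to 8.27 in KO. None of these 5 passed by limma either, and 2 had an unadjusted p under 0.05. Their log2 fold changes ran from -1.13 (*Elovl3*) to -0.04 (*Kcnk3*). *Agpat2* in BAT passed in 1 of the 8 fits that leave out a mouse, that without WT mouse 1, with adjusted p of 0.0296 to 0.191 and log2 fold changes of -0.62 to -0.59. Without the 3 arrays high in muscle markers, an alternative chosen after seeing the data, its log2 fold change was -0.58 and its adjusted p 0.463.

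In liver, where the fatty acids that reach it are re-esterified, 1 of the 10 genes passed, with 0.661% of all genes passing and 0.499% as lower in KO. *Mgll* measured 6.58, 6.43, 6.75 and 6.65 in WT and 6.02, 6.14, 6.25 and 6.00 in KO. All KO livers lay below all WT livers, and the mean was 1.42-fold lower (log2 fold change -0.50, standard error 0.09, adjusted p = 0.0371 from limma). *Agpat2* also separated the groups, with 7.65, 7.82, 7.76 and 7.62 in WT and 7.13, 7.57, 7.44 and 7.46 in KO, but did not pass (log2 -0.31, standard error 0.10, adjusted p = 0.198). These 2 were the members whose groups did not overlap, both lower in KO, as were 4.16% of all genes. *Abhd5* measured 5.39, 5.66, 5.77 and 5.69 in WT and 5.50, 5.49, 5.39 and 5.10 in KO, with overlap (log2 -0.26, adjusted p = 0.336).

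Among the members, *Gpam* (first step of synthesis) and *Dgat1* and *Dgat2* (last step) were close to equal in the livers of both genotypes. *Gpam* measured 8.76, 8.72, 8.68 and 8.80 in WT and 8.80, 8.91, 8.74 and 8.35 in KO (log2 -0.04, 95% interval -0.29 to 0.20). *Dgat1* had a log2 fold change of 0.00 (95% interval -0.19 to 0.19), *Dgat2* of -0.04 (-0.25 to 0.16) and *Pnpla2* of 0.00 (-0.23 to 0.24), intervals that all ended within 0.29 log2 units of 0. *Pnpla2* measured 7.60, 7.47, 7.59 and 7.42 in WT and 7.55, 7.79, 7.27 and 7.47 in KO livers, which lay on both sides of WT. Its inhibitor *G0s2* measured 6.12, 5.53, 5.91 and 5.87 in WT and 5.91, 6.15, 6.03 and 6.08 in KO (log2 0.19, 95% interval -0.07 to 0.44), with overlap, and *Lipe* differed by 0.05 (-0.19 to 0.29). *Lpin1* had the widest interval of the liver values, -0.65 to 0.29, with WT livers from 6.29 to 7.19. The median over the members was -0.04, against 0.01 over all genes. *Mgll* in liver lost its call in 5 of the 8 fits that leave out a mouse, those without WT mouse 1, 3 or 4 or KO mouse 1 or 4, with adjusted p up to 0.118 and log2 fold changes between -0.56 and -0.45. Hepatocyte markers did not differ (10.52 to 10.58 in WT and 10.54 to 10.61 in KO), while endothelial markers averaged 4.55 to 4.69 in WT and 3.57 to 4.35 in KO, 2 of 5 being past the threshold (*Cdh5* and *Kdr*, both lower). Progenitor markers averaged 5.14 to 5.56 in WT and 4.55 to 5.09 in KO livers, with 1 of 5 past the threshold (*Dcn*, log2 -2.06). Of 8 macrophage markers none passed by limma, and 4 were higher and 4 lower in KO, with a median of 0.02. An unadjusted p under 0.05 was found for 4 of them (13.3% of all genes). *Cd68* (-1.05), *Csf1r* (-0.82) and *Emr1* (-0.66) were lower, and *Trem2* (0.32) was higher. The list averaged 3.67 to 3.89 in WT and 3.27 to 3.88 in KO. The part of these markers in the result was not tested.

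The rest of the pathway was described with 16 other genes of synthesis and 13 other genes of lipolysis and lipid droplets, all measured. In eWAT the synthesis list moved both ways, 3 rising and 6 falling, with a median of -0.10. Of all genes, 15.2% passed in this depot in either direction and 4.57% as higher. The genes that rose lie beside *Gpam* and *Dgat1* in the pathway: *Gpat4* and *Gpat3*, the glycerol-3-phosphate acyltransferases of the endoplasmic reticulum (listed as *Agpat6* and *Agpat9*), and *Mogat1*, a monoacylglycerol acyltransferase. *Agpat6* measured 6.72, 6.86, 6.67 and 6.61 in WT and 8.31, 7.28, 8.23 and 8.16 in KO (log2 fold change 1.28, standard error 0.21, adjusted p = 0.009), *Agpat9* rose by 1.20 and *Mogat1* by 1.07. The groups did not overlap in any of these, and together with *Gpam* 3 of the genes for the first acylation were higher. Those that fell were other paralogs and acyl-CoA synthetases: *Agpat4* (-1.05), *Agpat5* (-0.61), the lipin *Lpin2* (-0.70), glycerol kinase (listed as *Gyk*, -0.85), *Acsl3* (-0.50) and *Acsl4* (-0.38). Thus *Lpin1* and *Lpin2* moved in opposite directions in this depot. *Agpat2*'s paralogs *Agpat1* (-0.15) and *Agpat3* did not pass.

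Of the 13 lipolysis and droplet genes, 7 rose and 2 fell in eWAT, with a median of 0.24 (15.2% of all genes passed, 4.57% as higher). *Adrb3*, the β3-adrenergic receptor through which noradrenaline starts lipolysis, measured 6.58, 5.58, 6.10 and 6.07 in WT and 8.72, 7.32, 8.45 and 8.79 in KO (log2 2.24, standard error 0.32, adjusted p = 0.008 from limma). *Pde3b*, the phosphodiesterase through which insulin lowers cAMP and slows lipolysis, rose too, from 8.09 to 8.27 in WT to 8.89 to 9.61 in KO (log2 1.06). *Ces1d* (1.67), *Pnpla3* (1.40), *Plin1* (0.65), *Cidec* (0.30) and *Fabp4* (0.24) also rose. An activating and a restraining gene of the cAMP branch therefore rose side by side, as did *Pnpla2* and its inhibitor *G0s2*. *Lipa*, the acid lipase of lysosomes that macrophages express strongly, fell by 1.87, from 10.06 to 10.26 in WT to 7.51, 9.76, 8.31 and 7.74 in KO mice 1 to 4, and *Hilpda*, another inhibitor of ATGL, fell by 1.00. KO mouse 2 stood nearest to WT for both *Adrb3* and *Lipa*, as for the macrophage markers.

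**Figure D5:**
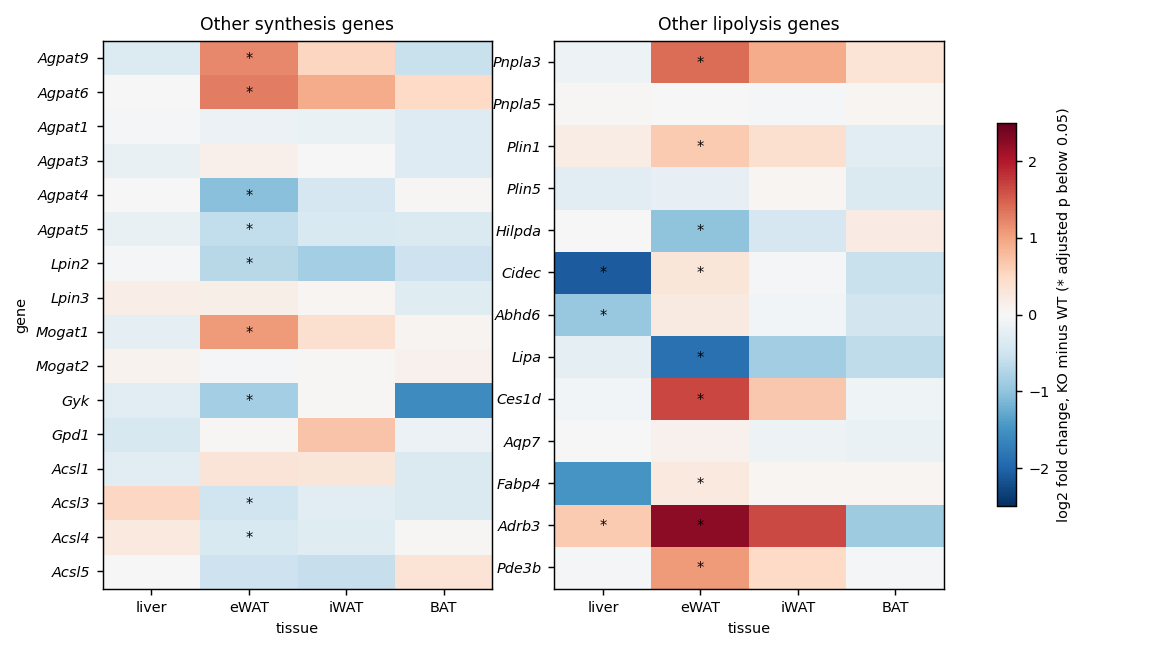
Log2 fold change, KO minus WT, of 16 other synthesis genes (left) and 13 other lipolysis and droplet genes (right) in the 4 tissues, red for higher and blue for lower in KO, with an asterisk for an adjusted p under 0.05. In eWAT 10 of these genes rose and 8 fell (15.2% of all genes passed), in liver 1 rose and 2 fell (0.661%), and none passed in iWAT or BAT.

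Outside eWAT few of these genes passed, and in liver 0.661% of all genes did. In liver *Adrb3* rose by 0.65 from a low level (3.74 to 4.02 in WT and 4.19 to 4.80 in KO), *Abhd6*, a monoacylglycerol lipase like *Mgll*, fell by 0.95 (6.54 to 6.88 in WT and 5.50 to 6.18 in KO, adjusted p = 0.013 from limma), and *Cidec*, which enlarges lipid droplets, fell by 2.08 (5.44 to 7.16 in WT and 3.89 to 5.39 in KO, adjusted p = 0.039). Of the genes followed here, the monoacylglycerol lipases *Mgll* and *Abhd6* were thus both lower in KO liver, without overlap. No synthesis gene of the list passed in liver by limma, with 5 of 16 at an unadjusted p under 0.05 (13.3% of all genes). *Gpd1* (-0.39), *Agpat9* (-0.34) and *Mogat1* (-0.22) were lower without overlap, as were 4.16% of all genes. *Acsl3* (0.51) was higher without overlap, and the share of all genes higher without overlap is not given here for liver.

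In iWAT and BAT none of the 29 genes passed by limma, although 8 of 16 synthesis and 6 of 13 lipolysis genes in iWAT, against 15.4% of all genes, and 11 and 6 in BAT, against 12.7%, had an unadjusted p under 0.05. *Adrb3* separated the genotypes in both depots but on opposite sides: it measured 6.09, 5.01, 6.83 and 6.62 in WT and 8.14, 7.21, 7.90 and 7.92 in KO iWAT (log2 1.66, adjusted p = 0.221), and 6.13, 7.15, 6.61 and 6.58 in WT and 6.04, 5.82, 5.48 and 5.56 in KO BAT (log2 -0.89, adjusted p = 0.130). *Lipa* was lower without overlap in both (-0.88 in iWAT and -0.63 in BAT). *Agpat6* was higher without overlap in both (0.92 and 0.49), which in BAT set it apart from *Agpat9* (-0.56), *Agpat3* (-0.33), *Acsl1* (-0.36) and *Gyk* (-1.58), all lower without overlap. *Cidec* (-0.56), *Abhd6* (-0.46), *Plin5* (-0.37) and *Plin1* (-0.29) of the lipolysis and droplet list were also lower without overlap in BAT, and *Acsl5* (-0.58) in iWAT. In BAT 3.92% of all genes were lower without overlap, and such shares are not given here for iWAT. Differences between depots in these other genes were not tested.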

How the data were processed

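Total RNA of each tissue was labelled with biotin and hybridised to Affymetrix Mouse Gene 2.1 ST arrays. The authors deposited 1 table of log2 values per tissue, with 1 value per gene and mouse, and array medians within a table were nearly equal, so the arrays had been normalized within each tissue. The software, probe summary and normalization are not given in the sources used here. For 840 genes, among the members only *G0s2*, the deposited value was a mean over several probe sets. The tables named VIS and ING were used as eWAT and iWAT. Between 1 and 2 entries per table with no usable gene name were left out, leaving 24646 genes. *Gpat3*, *Gpat4*, *Gk* and *Adgre1* were matched by the older symbols *Agpat9*, *Agpat6*, *Gyk* and *Emr1*.

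KO and WT arrays were compared within each tissue, since the tables were normalized apart, with limma 3.58.1 in R 4.3.3 (lmFit and eBayes, two-sided) and Benjamini-Hochberg adjusted p-values over all genes, with a threshold of 0.05. Changes in eWAT and in another tissue were compared with the same model on per-mouse differences, taking equal numbers in the labels as the same mouse. Each group held 4 mice, and the number of arrays limits the precision. The single-value test for *Gpr146* was an exact permutation test. The models were tested on simulated data. Alternatives were quantile normalization, equal array medians, omission of the dimmer genes, array weights, a trended and robust prior, blocking on the replicate number, values relative to adipocyte markers, the t-test named in the methods, omission of 1 mouse at a time and, chosen after seeing the data, omission of iWAT arrays with a B cell marker mean above 5 or of BAT arrays with a muscle marker mean above 5. Between tissues, arrays taken as independent samples were a further alternative. Figures were drawn with matplotlib 3.10.9.

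All 10 members were named in every tissue, and of the other pathway genes those past the threshold or, where few passed, those without overlap between groups. The members, the pathway lists and the marker lists (adipocyte, brown adipocyte, hepatocyte, macrophage, B cell, skeletal muscle, progenitor, endothelial, mesothelial and epididymis) were chosen with earlier results of these data known. Start-site windows came from RefSeq, build GRCm38.p6.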

Additional observations from a re-analysis of the deposited data

Results flagged for a closer look

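In iWAT, *Lipe* of KO mouse 2 measured 7.85, and the nearest of the other 3 KO mice measured 8.22. Its gap to that mouse took a share of 0.845 of the range of the group, above the 95% critical value of Dixon's test for 4 values. This was the only one of 80 groups of 4 past the limit, and chance alone marks about 1 group in 20.

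The change in eWAT differed from that in liver for 4 members by limma on per-mouse differences: *Gpam* by 1.77, *Dgat1* by 0.90, *Mgll* by 0.62 and *Lipe* by 0.58 log2 units, all higher in eWAT. It differed from that in BAT for 5 members: *Gpam* by 1.98, *Dgat1* by 1.17, *Lpin1* by 0.88, *Lipe* by 0.70 and *Pnpla2* by 0.51. The eWAT values enter both comparisons, and eWAT was chosen as the reference with earlier results of these data known. Macrophage markers differed between the genotypes by a mean per array of 8.61 to 8.86 in WT and 5.31 to 8.21 in KO eWAT, against 3.67 to 3.89 and 3.27 to 3.88 in liver and 3.90 to 4.22 and 3.496 to 4.014 in BAT, and their part in the differences between tissues was not tested.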

How the results depend on the processing

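In eWAT 6 members passed under every normalization tried, without the dimmer genes, with array weights and by the methods' t-test before adjustment (27.6% of all genes), 5 with a trended and robust prior (without *Pnpla2*), 4 relative to the adipocyte markers (1 higher and 3 lower) and 0 by the adjusted t-test, which called 38 of all genes. *Gpam* passed in 16 of 17 alternatives there, *Lipe* in 15, *Dgat1* in 13, *G0s2* in 11, *Lpin1* in 9 and *Pnpla2* in 7. The single calls elsewhere held less often, *Mgll* in liver in 8 of 16 alternatives and *Agpat2* in BAT in 6 of 18. In liver 0 members passed after quantile normalization and by the adjusted t-test, and 2 before adjustment (11.8% of all genes). In BAT 0 passed after quantile normalization, with equal array medians, by the adjusted t-test and without the arrays high in muscle markers, and 5 by the t-test before adjustment (11.4% of all genes). In iWAT 2 members passed by the t-test before adjustment (12.8% of all genes), and without the arrays high in B cell markers 1 member and 5 other pathway genes passed. Where a call was lost, the cause was not tested.

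Signs turned for members close to 0 (log2 fold changes). In liver *Dgat1* gave 0.051 after quantile normalization, and *Pnpla2* gave -0.016 with equal medians and -0.0097 with array weights. In iWAT *Pnpla2* gave -0.044, *Abhd5* 0.071 and *Mgll* 0.088 after quantile normalization, *Abhd5* gave 0.064 and *Mgll* 0.040 with array weights, and *Pnpla2* gave -0.030 relative to adipocyte markers and -0.043 without the arrays high in B cell markers, where the difference of *Dgat2* between eWAT and iWAT was 0.13. Relative to adipocyte markers, eWAT gave -0.35 for *Agpat2*, -0.53 for *Dgat2*, -0.17 for *Pnpla2*, -0.55 for *Abhd5* and -0.49 for *Mgll*, and BAT gave 0.091 for *Lpin1*, 0.17 for *Pnpla2* and 0.16 for *Lipe*. With this setting the median of all genes was itself shifted, by -0.57 in eWAT and by 0.25 in BAT.

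When 1 mouse was left out at a time, members past the threshold numbered 2 to 6 in eWAT and 0 to 1 in each of liver, BAT and iWAT, and other pathway genes 9 to 18 in eWAT, 0 to 3 in liver, 0 to 3 in BAT and 0 to 2 in iWAT. Of all genes, 41 to 300 passed in liver, 1448 to 5429 in eWAT, 0 to 227 in iWAT (the highest without KO mouse 2) and 0 to 80 in BAT (the highest without WT mouse 1). Members whose change differed from eWAT numbered 1 to 6 for liver, 2 to 7 for BAT and 0 for iWAT. The log2 fold changes that turned sign ranged in liver from -0.11 to 0.071 (*Gpam*), -0.064 to 0.041 (*Dgat1*), -0.10 to 0.013 (*Dgat2*), -0.088 to 0.086 (*Pnpla2*) and -0.0081 to 0.15 (*Lipe*), in eWAT from -0.11 to 0.21 (*Dgat2*) and -0.082 to 0.26 (*Abhd5*), and in iWAT from -0.063 to 0.45 (*Dgat2*), -0.28 to 0.062 (*Abhd5*) and -0.17 to 0.044 (*Mgll*). The differences that did ranged from -0.044 to 0.19 (*Dgat2*, eWAT minus liver), and, eWAT minus iWAT, from -0.32 to 0.19 (*Dgat1*), -0.33 to 0.069 (*Dgat2*) and -0.073 to 0.28 (*G0s2*).

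With the replicate number as a block, 0 members passed in liver, 0 in BAT, 0 in iWAT and 5 in eWAT (without *Pnpla2*), and the change in eWAT differed from liver for 4 members, with *Lpin1* gained (adjusted p = 0.022) and *Mgll* lost (0.060), and from BAT for 6, with *G0s2* (0.021) and *Mgll* (0.044) gained and *Pnpla2* lost (0.057). The main fits did not take the numbers as pairs within a tissue. Of 16 pairs of equal number, 8 correlated above 0.1 in their deviations from the group means (r -0.38 to 0.67), and 8 of 16 correlated best with their own number. These values do not decide whether equal numbers mark pairs.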

Other observations

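Some genes outside the pathway followed the members closely from mouse to mouse. Over the 32 arrays of 8 mice, after the mean of each genotype in each tissue was removed, the residuals of *Pnpla2* correlated across arrays most with those of *Pdk2*, a kinase that inhibits pyruvate dehydrogenase (Pearson r 0.87), *Ctnna1* (0.84) and *Ptprm* (0.83), and with its fellow lipase *Lipe* at 0.77. The residuals of *Dgat2* correlated most with *Prkar2b*, a regulatory subunit of protein kinase A (0.83), *Pank3*, which makes a precursor of coenzyme A (0.82), and *Acsl1*, the acyl-CoA synthetase that activates fatty acids (0.80), and with *Dgat1* at 0.74. The correlation between *Pnpla2* and *Dgat2* themselves was 0.18. These values are descriptions over arrays that share mice and tables.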
